A study of Rattus norvegicus with 50 samples.

Results

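Acute phase proteins are blood and tissue proteins whose production changes within hours to days of inflammation. The 8 genes described here, Lcn2, Orm1, Hp, Lbp, A2m, Cp, Ptx3 and Hpx, code for acute phase proteins and were followed in the lungs of rats that had inhaled titanium dioxide. They are 8 of 25208 genes tested, and every array feature bearing the name of one of these genes was used: 21 spots per array, which carried 12 different 60-base probes. The genes were chosen because earlier results on these same arrays had shown some of them to differ between exposed and control rats, so their own differences are given as descriptions, with no p-value. Where a member is counted by the rule used for all genes, the count describes the values and supports nothing. All 8 passed the filter on dim probes.

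Male F344 rats, an inbred laboratory strain, were 12 weeks old and breathed through the nose only, 6 h per day on 5 days per week for 4 weeks. Exposed rats received an aerosol of TiO2 P25 nanoparticles at 10 mg/m3 and control rats received filtered air. The accessory lobe of the lung was taken on the last day of exposure (D0) or 3, 28, 90 or 180 days later (D3, D28, D90, D180), from 5 control and 5 exposed rats at each time, and each of the 50 RNA samples was labelled with Cy3 and read on an array of its own. All rats were of this sex and age at exposure, so that later times are also later ages.

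The acute phase response is best known from the liver, where interleukin-6 acts through Stat3, and interleukin-1 and tumour necrosis factor through NF-kappa B and C/EBP factors, to raise transcription of many acute phase genes. Lung epithelium and macrophages also express several of them. Among the members, Lcn2 (lipocalin 2) withholds iron from bacteria by binding their siderophores, Hp (haptoglobin) binds free haemoglobin, Hpx (hemopexin) binds free haem, and Cp (ceruloplasmin) is a copper-carrying ferroxidase. Lbp (lipopolysaccharide binding protein) and Ptx3 (pentraxin 3) take part in the recognition of microbes. Orm1 (orosomucoid 1, alpha-1-acid glycoprotein) is a plasma carrier protein, and A2m (alpha-2-macroglobulin) is an inhibitor of proteases.

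The parts of the transcripts that were measured are shown for 4 members whose probes lie in coding sequence, because each value below is the brightness of such a 60-base match. Positions are on rn4, the build named in the array files: Orm1 at chr5:80326525-80326584 (plus strand), Hp at chr19:39443156-39443215 (minus strand), Hpx at chr1:163319663-163319722 (minus strand) and A2m at chr4:158152445-158152504 (plus strand).
Orm1: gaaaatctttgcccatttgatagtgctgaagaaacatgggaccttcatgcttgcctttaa
Hp: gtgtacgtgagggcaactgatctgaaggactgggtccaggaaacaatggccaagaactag
Hpx: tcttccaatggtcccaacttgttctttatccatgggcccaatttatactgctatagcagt
A2m: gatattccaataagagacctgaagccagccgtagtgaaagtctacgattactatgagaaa
The Lcn2 probe lay at chr3:11511592-11511651 (minus strand) and the Lbp probe at chr3:149043196-149043255 (plus strand). Ptx3 had 2 probes, at chr2:156095594-156095653 and chr2:156094523-156094582. Cp had 3, which are described with its values.

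RefSeq promoter sequences, from 250 bases before to 50 bases after the annotated start on GRCr8, were at hand for 5 members. They are shown so that the motifs of the factors named above can be read in them. Capitals mark matches to the C/EBP motif TTGCNNAA or to the kappa B consensus on either strand. The windows are chr3:36081731-36082030 (minus strand) for Lcn2, chr5:81788259-81788558 (plus strand) for Orm1, chr2:104368420-104368719 (plus strand) for Cp, chr2:152797313-152797612 (plus strand) for Ptx3 and chr1:169352106-169352405 (minus strand) for Hpx.
Lcn2: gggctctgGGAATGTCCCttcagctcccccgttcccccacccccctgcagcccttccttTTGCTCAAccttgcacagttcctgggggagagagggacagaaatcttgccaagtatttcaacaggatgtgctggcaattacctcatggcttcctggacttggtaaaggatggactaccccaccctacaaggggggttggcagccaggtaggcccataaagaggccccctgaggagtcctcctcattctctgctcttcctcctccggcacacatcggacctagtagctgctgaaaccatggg
Orm1: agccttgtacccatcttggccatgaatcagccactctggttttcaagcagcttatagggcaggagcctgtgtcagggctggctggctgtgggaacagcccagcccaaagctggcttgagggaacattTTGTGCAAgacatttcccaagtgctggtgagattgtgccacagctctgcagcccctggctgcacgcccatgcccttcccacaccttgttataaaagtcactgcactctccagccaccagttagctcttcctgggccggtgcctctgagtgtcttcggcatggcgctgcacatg
Cp: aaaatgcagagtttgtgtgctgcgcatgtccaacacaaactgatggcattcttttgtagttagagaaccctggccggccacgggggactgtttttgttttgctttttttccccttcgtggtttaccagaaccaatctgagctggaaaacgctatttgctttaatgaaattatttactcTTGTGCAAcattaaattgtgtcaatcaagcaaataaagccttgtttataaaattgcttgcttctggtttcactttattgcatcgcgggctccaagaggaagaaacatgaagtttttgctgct
Ptx3: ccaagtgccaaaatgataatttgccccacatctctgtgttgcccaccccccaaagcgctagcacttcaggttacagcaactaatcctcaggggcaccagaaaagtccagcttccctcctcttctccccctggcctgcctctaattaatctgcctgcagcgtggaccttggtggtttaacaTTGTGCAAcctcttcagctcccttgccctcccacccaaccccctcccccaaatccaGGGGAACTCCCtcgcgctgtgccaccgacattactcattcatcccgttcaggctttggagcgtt
Hpx: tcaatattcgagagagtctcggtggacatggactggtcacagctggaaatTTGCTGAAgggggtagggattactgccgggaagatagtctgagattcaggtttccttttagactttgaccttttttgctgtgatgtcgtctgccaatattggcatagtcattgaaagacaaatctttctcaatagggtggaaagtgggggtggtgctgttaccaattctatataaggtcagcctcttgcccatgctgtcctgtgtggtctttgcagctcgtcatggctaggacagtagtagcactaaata
A C/EBP match was present in 5 of 5 member promoters and in 10.6% of the 33469 promoters of the table. Orm1, Cp and Ptx3 carried the same 8 bases, ttgtgcaa, starting 123, 72 and 70 bases before the start respectively. The kappa B consensus matched in Lcn2 and, in overlapping positions, in Ptx3, 2 of 5 members against 4.18% of all promoters. Neither the STAT motif TTCNNNGAA (8.87% of all promoters) nor the glucocorticoid receptor motif TGTTCT (20.7%) was found in the 5 windows. A match describes letters in this window and not a bound site.

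At D0, 6 of the 8 members were over-expressed in exposed lungs, meaning a change of 1.5-fold or more with an adjusted p below 0.05 in limma, when 2.77% of all genes tested were. The count was 6 at D3 (1.98% of all genes), 4 at D28 (0.861%), 1 at D90 (0.246%) and 2 at D180 (0.246%). No member was under-expressed at any time. Because the members were selected on these contrasts, nothing is read from these counts. The median log2 change of the members was 1.23, 1.21, 0.66, 0.24 and 0.44 at the 5 times, while the median of all genes stayed between -0.01 and 0.00. Members whose 5 exposed rats all lay above the 5 control rats numbered 6, 5, 4, 3 and 3 in the same order, when this held for 4.76%, 3.35%, 2.23%, 2.2% and 2.77% of all genes.

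**Figure D1:**
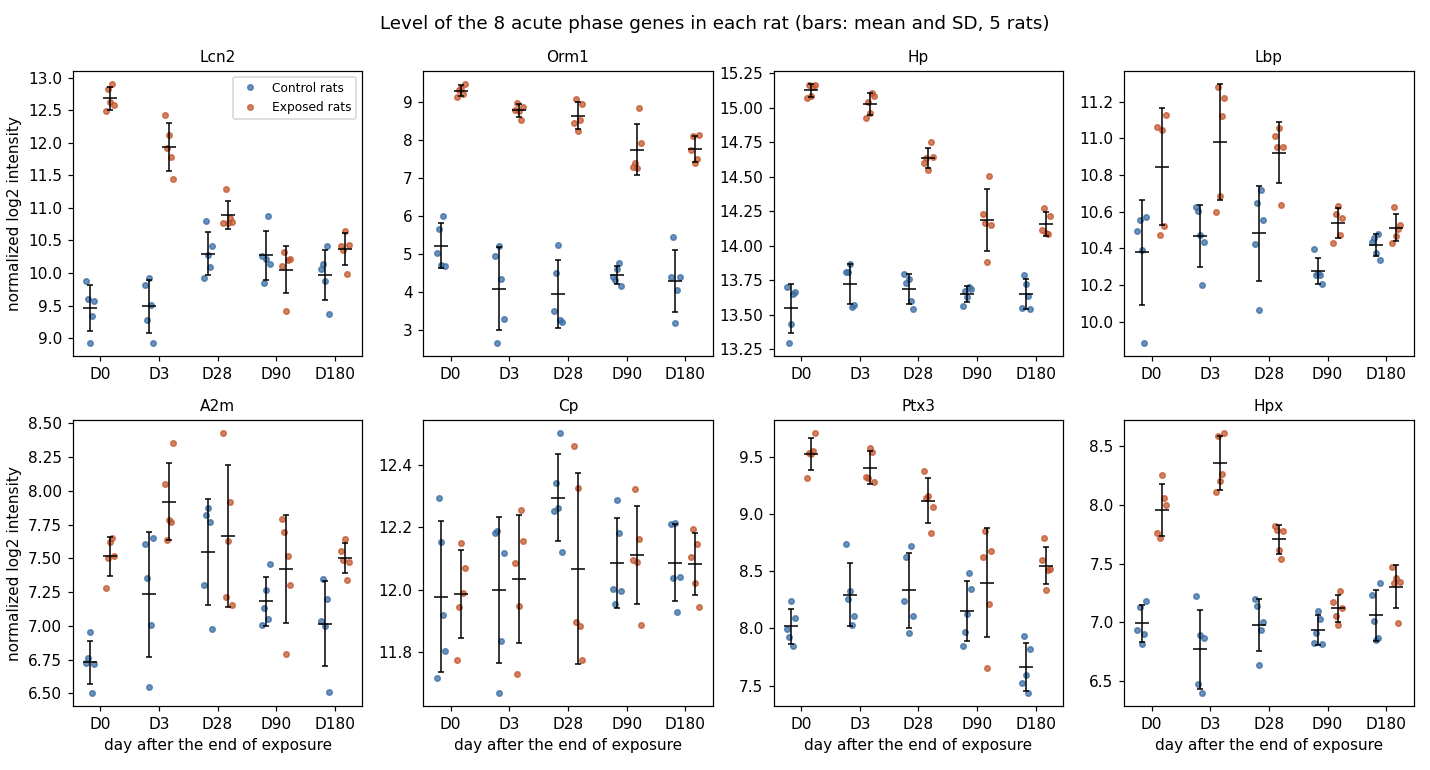
Normalized log2 intensity (y axes differ between genes) of the 8 acute phase genes in each rat against the day after exposure, with 5 control (blue) and 5 exposed (orange) rats a day, the horizontal mark at the mean and bars of 1 SD. Orm1 and Hp of exposed rats lay above all controls at every day, Lcn2 at D0 and D3, and Cp, read here by its variant 2 probe, did not separate.

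In the whole series, 68.7% to 84.5% of gene spots on an array were well above background and no spot of a member was saturated. The arrays lay on 7 slides, 4 of which carried the arrays up to D28 and the rest the later ones, apart from exposed replicate 1 of D3, which was hybridised beside rats of D90 and D180. A difference in level between the days up to D28 and the later days therefore cannot be told apart from one between slides. Within slides that held both groups of a day, exposed rats had the higher mean in 125 of 136 comparisons of the 8 members, and in 9 of the 17 for Cp alone. The members were selected on these contrasts and share the same rats, so this count describes the values and supports nothing. The share among all genes was not computed. In whole tissue, a change in the number of cells of a type and a change in RNA per cell cannot be told apart.

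With the processing used throughout, Orm1 had the largest log2 change of the 8 at every time. Each gene was read on its own probe, and Orm1 by its lower bound at D28 and D180. At D0 the exposed rats had normalized log2 intensities of 9.11, 9.31, 9.37, 9.19 and 9.47, and the control rats 5.02, 5.65, 4.71, 5.99 and 4.67. At D180 exposed rats still had 7.72, 8.08, 7.38, 7.49 and 8.12, and controls 4.38, 5.44, 3.17, 4.04 and 4.39. The groups did not overlap at these or any other time, which was also so for Hp.
The log2 change was 4.08 at D0, 4.69 at D3 and 3.30 at D90 (SE 0.38 each). Controls were near the limit of the assay: Orm1 was well above background in all 25 exposed rats, but in 1, 1, 0, 3 and 0 of 5 control rats at the successive times. Where no control was above background the change has only a lower bound, which was at least 13.1-fold at D28 (3.71 on the log2 scale) and at least 9.58-fold at D180 (3.26). These bounds hold for this processing only. With normal-exponential background correction the log2 change of Orm1 was 2.59 at D0, 2.32 at D28 and 1.60 at D180, and in the authors' value table it was 2.79, 2.64 and 1.85, below the bounds at both of the later days. Both of these D0 values were below the D0 change of Lcn2, which was 3.11 or more over 10 alternatives. The 2 Orm1 spots of an array differed by a median of 0.13, and by 4.02 on 1 array. Ordered by mean, exposed rats of D0 stood above D3 and D28, which did not differ beyond their SD, and these above D180 and D90, which did not either. The step down to the highest control group was 2.53.

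Lcn2 had a large but short-lived difference. At D0 exposed rats had 12.49, 12.82, 12.63, 12.91 and 12.59 and control rats 9.88, 9.60, 8.93, 9.34 and 9.58, with no overlap. At D3 the exposed values were 12.43, 11.92, 12.12, 11.78 and 11.44 against 9.81, 9.28, 9.93, 9.51 and 8.92 in controls, again with no overlap. By D28 the groups overlapped, with 2 exposed rats above all controls.
The log2 change fell from 3.22 at D0 and 2.45 at D3 to 0.60 at D28, -0.22 at D90 and 0.39 at D180 (SE 0.21 each). Control levels also moved, from 9.47 ± 0.36 at D0 (SD, n = 5) and 9.49 ± 0.41 at D3 to 10.30 ± 0.33 at D28. The lower change at D28 thus came with exposed rats at 10.89 ± 0.22 and a higher control mean. The 5 groups Exposed D180, Control D28, Control D90, Exposed D90 and Control D180 followed each other in level with steps smaller than the SD.

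Hp differed most regularly. Exposed rats had 15.07, 15.16, 15.09, 15.15 and 15.16 at D0 and controls 13.70, 13.29, 13.43, 13.65 and 13.67. At D180 the exposed values were 14.12, 14.27, 14.09, 14.09 and 14.22 and the control values 13.55, 13.79, 13.72, 13.64 and 13.55. All 5 exposed rats lay above all 5 controls at every time. The log2 change was 1.58, 1.30, 0.95, 0.53 and 0.51 at the successive times (SE 0.08 each), the last 2 under the 1.5-fold limit. The 5 control means spanned 0.17, so that the decline lay in the exposed groups, whose means spanned 0.97. In order of mean level, Exposed D0, D3 and D28 each stood above the next group by more than the SD, while single rats of D0 and D3 overlapped. Exposed D90 and D180 did not differ beyond the SD, and the 5 control groups followed one another within it.

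Hpx, which like Hp clears products of red cell breakdown, was highest at D3. Exposed rats had 8.11, 8.59, 8.20, 8.27 and 8.61 at D3 and controls 7.22, 6.48, 6.89, 6.40 and 6.87. At D0 the values were 7.76, 7.72, 8.25, 8.05 and 8.0002 in exposed rats against 6.94, 7.13, 6.82, 6.90 and 7.18 in controls. The groups did not overlap at D0, D3 or D28 and overlapped at D90 and D180. The log2 change was 0.96, 1.58, 0.72, 0.18 and 0.24 (SE 0.13 each). With normal-exponential background correction it was 0.71 at D0, 1.11 at D3 and 0.53 at D28, the last under the 1.5-fold limit. In mean level, Exposed D3 stood above Exposed D0 and this above Exposed D28 by more than the SD, while single rats of neighbouring groups overlapped.

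Ptx3 was read by 2 probes, which gave different time courses. With the brighter probe exposed rats at D0 had 9.31, 9.53, 9.52, 9.55 and 9.70 and controls 7.995, 7.93, 8.24, 7.85 and 8.09, with no overlap. At D90 the groups overlapped, with exposed values of 8.62, 8.85, 7.65, 8.21 and 8.67 against 7.85, 7.97, 8.12, 8.48 and 8.34. At D180 they were apart again, at 8.59, 8.79, 8.33, 8.51 and 8.52 against 7.53, 7.94, 7.60, 7.44 and 7.82.
The log2 change of the brighter probe was 1.504, 1.11, 0.78, 0.25 and 0.88 (SE 0.16 each). The other probe gave 1.18, 0.63, 1.00, 0.60 and 0.69 (SE 0.13 each), with all 5 exposed rats above all controls at every time. At D180 the lowest control mean of the brighter probe, 7.66 ± 0.21, lay beside an exposed mean of 8.55 ± 0.16.

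A2m and Lbp differed less. A2m at D0 was 7.28, 7.50, 7.62, 7.65 and 7.52 in exposed and 6.72, 6.76, 6.95, 6.50 and 6.71 in control rats, without overlap. At D3 its groups overlapped, and control rats ranged from 6.55 to 7.65. The log2 change was 0.78, 0.69, 0.12, 0.24 and 0.48 in order of time (SE 0.20 each). At D0 it was 0.519 with normal-exponential background correction and 0.578 in the authors' value table, both under the 1.5-fold limit. The D3 value no longer met the rule when any of 4 single rats was left out: control replicate 3 (0.51), control replicate 4 (0.63), exposed replicate 1 (0.65) or exposed replicate 5 (0.58). The dimmer A2m probe gave 0.76, 0.55, 0.08, 0.24 and 0.51 (SE 0.27 each). No step between neighbouring groups of A2m was larger than the SD.
Lbp was 11.06, 10.48, 11.05, 10.52 and 11.13 in exposed rats at D0 and 10.50, 10.56, 10.39, 9.88 and 10.57 in controls, and the groups overlapped. Its log2 change was 0.47, 0.51, 0.44, 0.26 and 0.10 (SE 0.13 each), under the 1.5-fold limit at every time. With the slide as a block the D3 value was 0.63 and met the rule. It also met it at D3 without exposed replicate 1 (0.61) or exposed replicate 3 (0.59).

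**Figure D2:**
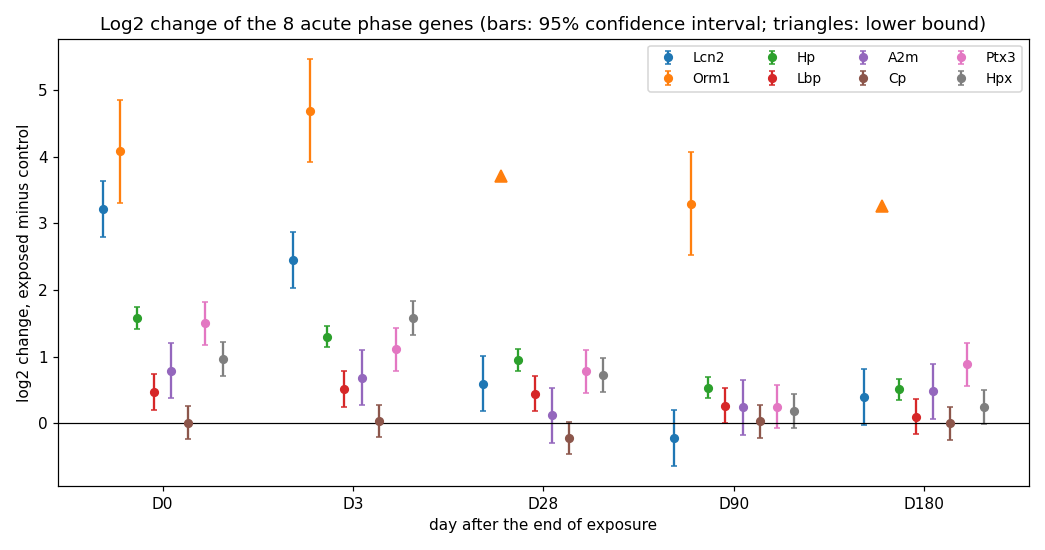
Log2 change (exposed minus control) of the 8 acute phase genes at each day after exposure, with points at the estimate and bars for the 95% confidence interval (5 against 5 rats). The members were selected on these contrasts, so the intervals are descriptions and test nothing. Triangles are lower bounds, for Orm1 at D28 (3.71) and D180 (3.26), where no control was above background. Lcn2 went from 3.22 to near 0, and Cp, read by its variant 2 probe, stayed between -0.23 and 0.04.

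For Cp, the result depended on which transcript end was read. The probe annotated to transcript variant 1 lay at chr2:105135264-105135323 and the probe annotated to variant 2 at chr2:105148774-105148833 (rn4, plus strand). The remaining probe lay at chr2:105129670-105129729. At D0 the variant 1 probe read 11.84, 12.35, 11.89, 12.33 and 11.87 in exposed rats and 11.38, 11.31, 11.49, 11.73 and 11.42 in controls. At D3 it read 12.42, 12.11, 12.39, 12.27 and 12.16 against 11.78, 11.73, 11.52, 11.67 and 11.67. The groups did not overlap at these 2 times and overlapped afterwards.
The variant 1 probe changed by 0.59, 0.60, -0.01, 0.05 and 0.18 on the log2 scale (SE 0.10 each). With the slide as a block the D0 and D3 values were 0.53 and 0.54, under the 1.5-fold limit. The variant 2 probe gave 0.01, 0.04, -0.23, 0.03 and 0.00 (SE 0.12 each), and the third probe 0.05, 0.18, -0.12, -0.02 and 0.06 (SE 0.13 each). Within each rat, the difference of variant 1 minus variant 2 was 0.58 larger in exposed rats at D0, with 3 of 5 above all controls. At D3 it was 0.56 larger, with 5 of 5 above all controls. It was 0.22, 0.02 and 0.18 larger at D28, D90 and D180.

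**Figure D3:**
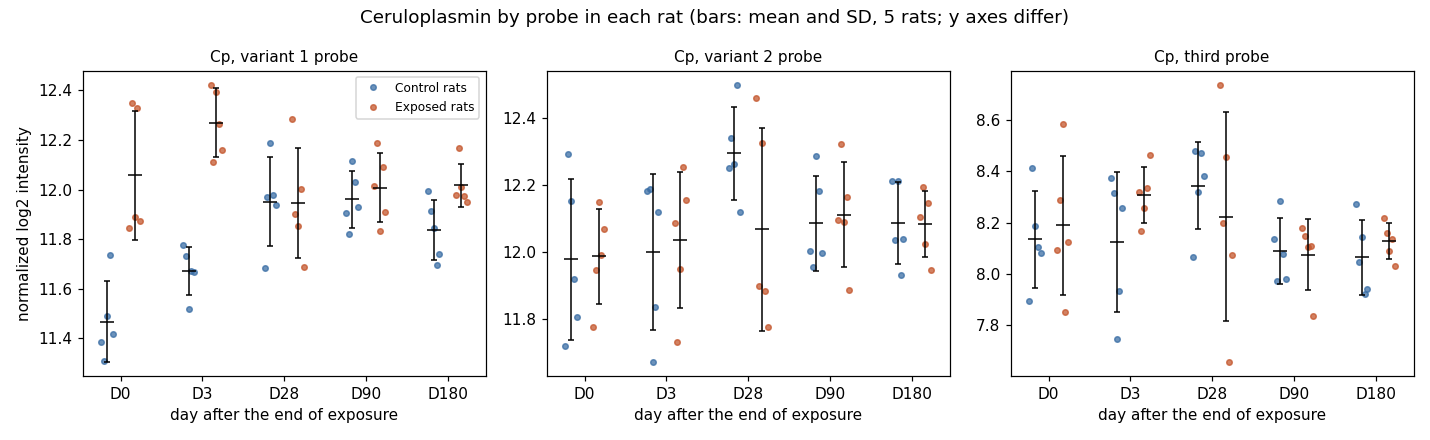
Normalized log2 intensity of ceruloplasmin by probe (y axes differ) in each rat against the day after exposure, control blue and exposed orange, with the mean and bars of 1 SD (5 rats). The variant 1 probe separated the groups at D0 and D3, and neither of the others did at any day.

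Genes with the most similar course over the 10 group means were sought for members whose means spanned at least 1 on the log2 scale, by the root mean square difference of centred means. Nearest to Hp was C3, the central complement component (0.0755), and nearest to Hpx was Itih3, an inter-alpha-trypsin inhibitor heavy chain (0.109). Nearest to A2m was Apobec1 (0.0943) and nearest to Ptx3 was Fcrlb (0.168). Lcn2 was followed most nearly by Slc26a4, the anion exchanger pendrin (0.311), and Orm1 by Ccl1, a chemokine (0.814). Both distances were greater, but the measure is not scaled to the span. The means of these members spanned most, 3.22 for Lcn2 and 5.36 for Orm1, so a greater distance need not mean a less similar course. The measure covers 10 groups from the same 50 arrays and is a description.

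Of 44 other acute phase genes tested, 17 were over-expressed and 2 under-expressed at D0, and 16 and 1 at D3. At D28, D90 and D180 there were 7, 4 and 3 over-expressed and none under-expressed. Calls in either direction covered 4.28%, 3.48%, 1.33%, 0.381% and 0.325% of all genes. The counts of the lists that follow are to be read beside the same shares. The list's median log2 change was 0.30, 0.43, 0.17, 0.06 and 0.06. This list and those that follow were also drawn up with earlier results of these arrays known. Their counts are descriptions, and nothing is read from them.
The genes called at every time were Kng1, Kng1l1 and Chi3l1. Kng1 and Kng1l1 code for kininogens, precursors of bradykinin and related peptides, and are close paralogs whose probes may not be fully separate. Kng1 rose by 2.04 on the log2 scale at D0 (SE 0.14, adjusted p = 1.04e-14, limma) and by 1.87 at D180 (adjusted p = 8.18e-12). Kng1l1 rose by 1.99 at D0 (SE 0.26, adjusted p = 9.33e-08) and by 1.91 at D180 (adjusted p = 3.67e-06). Chi3l1, a chitinase-like protein of macrophages and epithelium, rose by 1.92 at D0 (SE 0.11, adjusted p = 1.08e-17) and by 0.585 at D180 (adjusted p = 0.00122). That last value lay at the 1.5-fold limit: it ran from 0.54 to 0.62 over 10 alternatives and missed the rule in 5 of them, and it ran from 0.53 to 0.67 with single rats left out, missing the rule without control replicate 1, 3 or 5 or exposed replicate 1, 2 or 5. C3 rose by 1.35 at D0 (SE 0.08, adjusted p = 7.71e-17) and 0.97 at D28 (adjusted p = 1.81e-11), and its 0.46 at D180 (adjusted p = 0.000682) was under the fold limit. S100a9, a calcium-binding protein of neutrophils that is also on the neutrophil marker list, rose by 1.69 at D0 (SE 0.17, adjusted p = 1.35e-10). Serpina3n, a protease inhibitor, rose by 0.93 at D3 (SE 0.15, adjusted p = 1.39e-05).

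**Figure D4:**
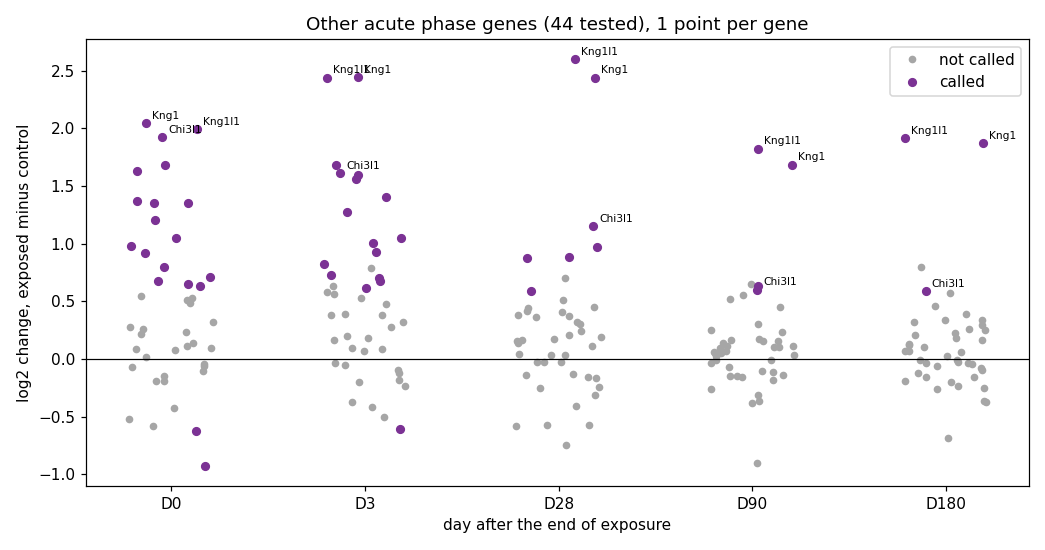
Log2 change (exposed minus control) of the 44 other acute phase genes tested, 1 point per gene at each day after exposure, called genes purple and the rest grey, with horizontal spread added for legibility. The kininogen genes Kng1 and Kng1l1 stayed at or above 1.68 at every day.

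Negative acute phase proteins are those whose production falls in the liver during inflammation. Of 23 such genes tested, 2 rose and 1 fell at D0, 2 rose and 1 fell at D3, and 1 rose at D28. Those that rose were Tf (transferrin, the iron carrier of plasma) and Fetub (a fetuin) early, and Car3 (a carbonic anhydrase) at D28. Tf rose by 0.76 at D0 (SE 0.13, adjusted p = 3.33e-05) and Fetub by 0.89 (SE 0.26, adjusted p = 0.0135). Car3 rose by 1.31 at D28 (SE 0.34, adjusted p = 0.016), was 0.63 with normal-exponential correction and 0.65 in the authors' value table, and did not pass on the arrays of that day alone (adjusted p = 0.219, limma), without control replicate 2 (1.16) or without exposed replicate 2 (0.94). Fetub at D0 did not pass on the arrays of that day alone (adjusted p = 0.11), nor without control replicate 2 (0.757) or 3 (0.755) or exposed replicate 1 (0.767). Apoa1, an apolipoprotein, fell by 0.65 at D0 (adjusted p = 0.0464), with 3 of 5 control and 2 of 5 exposed rats above background. The Apoa1 value ran from -0.67 to -0.19 over 10 alternatives and failed in 5 of them, and with single rats left out, from -0.74 to -0.55, it held only without control replicate 1 or exposed replicate 4. Serpinc1 (antithrombin), called lower at D3, was not above background in any rat. At D90 and D180 limma called 0 of the 23, with 3 and 2 at an unadjusted p under 0.05.

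Among 42 genes of acute phase signalling, 6 were over-expressed at D0, 6 over- and 1 under-expressed at D3 and 2 over-expressed at D28. Tnf, the cytokine tumour necrosis factor, rose by 1.77 at D0 (SE 0.22, adjusted p = 4.76e-08) and 1.31 at D3 (adjusted p = 3.23e-05). Il1r2, the decoy receptor for interleukin-1, rose by 1.16 at D0 (SE 0.17, adjusted p = 1.16e-06) and 1.78 at D3 (adjusted p = 9.21e-11). Osm (oncostatin M, of the interleukin-6 family) rose by 0.61 at D0 (adjusted p = 0.00125) and 0.84 at D3 (adjusted p = 1.76e-05), the latter 0.52 with normal-exponential correction and so under the fold limit. Il6 was called at D0, but was not above background in any of the 10 rats of that day, and in 1 of the 50 in all. Il17a, called at D28, was above background in 1 of 5 exposed rats and no control.
Il1b rose by 0.65 and Socs3, a feedback inhibitor induced by Stat3, by 0.73 at D3 (adjusted p = 0.00368 and 0.003), against 0.25 and 0.16 at D0, which did not pass. On the arrays of D3 alone neither passed (adjusted p = 0.214 for Il1b and 0.0749 for Socs3, limma), and Il1b fell under the fold limit without control replicate 3 (0.578) or 4 (0.576) or exposed replicate 4 (0.534). Stat3 stood at 0.09 and -0.05 at D0 and D3 (adjusted p = 0.901 and 0.937), Cebpb at 0.20 and -0.02 (0.296 and 0.961) and Cebpd at 0.49 and 0.19 (0.258 and 0.744). At D90 and D180 limma called 0 of the 42, with 6 and 8 at an unadjusted p under 0.05.
Of 32 receptors and partners of these proteins, 3 were over-expressed at D0, and 2 over- and 1 under-expressed at D3. Cd14, the partner of Lbp in binding lipopolysaccharide and also a member of the list of other acute phase genes, rose by 0.92 at D0 (SE 0.08, adjusted p = 1.33e-11) and Tlr2, a receptor for microbial lipoproteins, by 1.12 (SE 0.16, adjusted p = 6.54e-07). Selp (P-selectin, an adhesion molecule of endothelium and platelets) rose by 1.43 at D0 (SE 0.24, adjusted p = 2.08e-05). Fgf2, a growth factor, fell by 0.84 at D3 (SE 0.27, adjusted p = 0.0366). The Fgf2 value ran from -0.84 to -0.38 over 10 alternatives and failed in 4, and from -1.07 to -0.66 with single rats left out, failing without control replicate 1, 2 or 5 or exposed replicate 1, 2 or 3. From D28 on limma called 0 of the 32, with 11, 9 and 2 at an unadjusted p under 0.05.

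Markers of cell types that could carry these transcripts were read on the same arrays. Among all genes 4.28%, 3.48%, 1.33%, 0.381% and 0.325% were called in either direction at the 5 times. Of 20 hepatocyte markers 1 was called higher and 1 lower at D0, 1 lower at D3, 1 higher at D90 and none at D28 or D180. Arg1 was called higher at D0 (0.675), and Cyp2e1 lower at D0 (-0.82) and D3 (-0.80) and higher at D90 (0.67). Both were bright in control lungs of D0, with means of 11.71 for Arg1 and 11.57 for Cyp2e1. Alb (albumin) was above background in 1 of the 50 rats and Cps1 (carbamoyl phosphate synthase) in none. Of 24 neutrophil markers 5, 4, 3, 1 and 1 rose at the 5 times and none fell. Those that rose at D0, named here after their values were seen apart from S100a9, were Cd177 (2.43), S100a9 (1.69), S100a8 (1.36), Retnlg (0.98) and Itgam (0.81). Cd177, a surface protein of neutrophils, was called at every time and stood at 0.64 at D180. The list's mean level ran from 7.70 to 8.17 in controls and from 7.87 to 8.54 in exposed rats at D0. Mpo (myeloperoxidase) was above background in 10 of the 50 rats, and Csf3r (the G-CSF receptor) changed by 0.18 at D0 (adjusted p = 0.588) and 0.51 at D3 (adjusted p = 0.0255), under the fold limit.
Of 19 macrophage markers 1, 2, 1, 1 and 1 rose. Their mean level at D0 was 10.74 to 10.87 in controls and 10.93 to 11.27 in exposed rats, with no overlap. Spp1 (osteopontin) was the one called at every time, at 2.40 at D0 and 2.11 at D180, and Cd68 changed by 0.66 at D0 (adjusted p = 0.0939). Of 10 alveolar type 2 markers 1 rose at D0 and at D3, Lpcat1 (0.62 and 0.87), and the mean level of the list at D0 was 15.42 to 15.51 in controls and 15.65 to 15.73 in exposed rats, with no overlap. Sftpc (surfactant protein C) changed by 0.04 at D0 and stood at the top of the normalized scale, with the highest mean of all genes in exposed rats of D90 (19.01). Of 13 airway secretory markers 1 rose at each time up to D90, Bpifb1 (2.62 at D0), and 1 fell at D0 (Cyp2f4, -0.73) and at D3 (Aldh1a1, -0.72), while Scgb1a1 (club cells) changed by -0.27 at D0 (adjusted p = 0.0687).
At D0 the median log2 change was -0.42 for endothelium, -0.32 for fibroblast, -0.26 for red blood cell and -0.16 for mesothelium and fat markers. Mean levels of the rats overlapped between the groups of D0 for all of these lists except endothelium. For the lists above, the D0 median was 0.28 for macrophage, 0.26 for alveolar type 2, 0.21 for neutrophil, 0.11 for airway secretory and -0.12 for hepatocyte markers. Of 12 endothelium markers 3 fell at D0, Cldn5 (-0.87), Lyve1 (-0.77) and Tek (-0.59), and Lyve1 at D3 (-0.64), with a list median of -0.42 at D0 and mean levels of 12.64 to 12.88 in controls against 12.19 to 12.46 in exposed rats. None of 9 fibroblast markers was called at any time by limma, with 5 at an unadjusted p under 0.05 at D0, and their mean level at D0 was 11.93 to 12.13 in controls and 11.75 to 11.94 in exposed rats. None of 9 red blood cell markers was called at any time (3 at an unadjusted p under 0.05 at D0), and of 11 mesothelium and fat markers Upk3b (-0.60) and Wt1 (-0.71) fell at D3. With the slide as a block 0 of these 11 were called lower at D3. The part of these cell types in the members' differences was not tested.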

How the data were processed

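Lung RNA of 50 rats was measured on 1-colour arrays, 1 array per rat, in 10 groups of 5 named by the labels. Per the file headers, Feature Extraction 11.0.1.1 gave each spot's intensity after background subtraction and detrending, and the authors also deposited a table of quantile-normalized intensities, used as an alternative. Probe positions are on rn4. No count of reads applies, and the number of arrays limits precision.

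From the processed intensities, log2 values were quantile-normalized in R 4.3.3, leaving out spots flagged as non-uniform or outlier. Spots of a probe were averaged. Probes above the 95th percentile of negative controls on at least 5 arrays were kept (29549 of 30367), and the probe with the highest mean stood for its gene. limma 3.58.1 fitted 10 group means over all 50 arrays, with Benjamini-Hochberg adjustment over 25208 genes. A call needed 1.5-fold and an adjusted p under 0.05, and names follow a fixed rule: all members, the 3 largest called changes per list and day, a few fixed regulators, the 3 nearest genes per member, and marker genes. The members and lists were chosen with earlier results of these data known. The limma p-values set a group difference against a residual spread estimated over all 10 groups. With no slide term, that spread holds differences between rats, arrays and slides together. The code was tested on simulated data. Normalization, background correction, slide, replicate number, filter, probe, flagged spots, arrays fitted, fold limit and single arrays were varied.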

Additional observations from a re-analysis of the deposited data

Results flagged for a closer look

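Over the 12 probes of the members, 120 groups of 5 rats were examined for a rat that stands apart, and 8 had one, where chance gives about 1 in 20. These were, on the log2 scale, Lcn2 in exposed replicate 2 of D28 (11.28, nearest other 10.85) and exposed replicate 3 of D90 (9.42, nearest 10.10), and Lbp in control replicate 4 of D0 (9.88, nearest 10.39) and exposed replicate 4 of D28 (10.63, nearest 10.95). For Cp they were exposed replicate 5 of D90 on the third probe (7.84, nearest 8.10) and exposed replicate 2 of D180 on the variant 1 probe (12.17, nearest 12.01). On the dimmer Ptx3 probe they were control replicate 1 of D0 (6.36, nearest 6.89) and control replicate 5 of D28 (6.70, nearest 7.20).

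Among 32 named genes outside the members, 14 of 64 interaction contrasts in limma showed an exposure effect that differed from that at D0. Cd14, Chi3l1, Selp, Tlr2, Tnf and Il1r2 were named for a change at D0 among the 3 largest called in their list. Such a choice favours a smaller effect later. The effect was smaller at D28 for Cd14 (-0.88, adjusted p = 1.25e-06), Chi3l1 (-0.77, adjusted p = 0.00122), S100a9 (-0.81, adjusted p = 0.0497), Selp (-1.52, adjusted p = 0.00522), Tlr2 (-1.04, adjusted p = 0.00287) and Tnf (-1.37, adjusted p = 0.00645). At D180 it was smaller for the same 6 genes, at -0.95 for Cd14 (adjusted p = 1.75e-07), -1.34 for Chi3l1 (4.27e-08), -1.12 for S100a9 (0.00157), -1.57 for Selp (0.00255), -0.88 for Tlr2 (0.0113) and -1.58 for Tnf (0.000719), and also for C3 (-0.90, adjusted p = 3.63e-07) and Il1r2 (-0.98, adjusted p = 0.00777). The kininogen genes did not pass, with differences of -0.17 for Kng1 (SE 0.20) and -0.08 for Kng1l1 (SE 0.36) at D180.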

How the results depend on the processing

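No member changed sign between a called value and any alternative, and leaving out single rats moved the 40 member changes by less than the spread between rats. Counts of over-expressed members stayed within 1.5 times of the main value except at D90, where 2 were counted with no fold limit or with each probe on its own, and 1 to 2 when a rat was left out (Hp passed without exposed replicate 3). List counts moved more. Scaling to the 75th percentile gave 1 receptor at D28 and 2 other acute phase genes at D90. Normal-exponential correction and the authors' value table each gave 3 signalling genes at D0, 0 at D28 and 1 receptor at D28. The slide as a block gave 2 negative acute phase genes at D28, 1 signalling gene at D90 and 5 other acute phase genes at D180. The filter on well above background gave 1 receptor at D28, and averaged probes gave 5 receptors at D0. Fitting only the arrays of a day gave 1, 0 and 0 negative genes at D0, D3 and D28, 1 receptor at D3 and 0 signalling genes at D28. With no fold limit there were 12, 4 and 1 signalling genes at D0, D28 and D180, 10, 11, 4 and 1 receptors at D0, D3, D28 and D90, 6 negative genes at D3 and 5 other acute phase genes at D180. Leaving out a rat gave 1 to 3 negative genes at D0 and 0 to 3 at D28, 0 to 2 signalling genes and 0 to 1 receptors at D28, and 2 to 4 other acute phase genes at D90. The cause was not tested.

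Same-numbered rats of a day do not pair: their deviations correlated from -0.34 to 0.45 (median -0.03), over 0.1 in 8 of 25 pairs. The pairs that shared a slide all correlated above 0, from 0.04 (replicate 3 of D90) to 0.45 (replicate 5 of D28). With the replicate number as a block 6, 6, 4, 1 and 2 members were counted, and 1 signalling gene at D90; other counts stayed within 1.5 times.

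Some uncalled values near 0 changed sign. Scaling to the 75th percentile gave Cebpb 0.0099 at D3 and Il6 -0.0468 at D28 and -0.3053 at D180. Normal-exponential correction gave Cebpb 0.0219 at D3 and Alb -0.0009 at D28 and 0.0278 at D90, while the authors' values gave 0.0589, -0.0060 and 0.0151 for these. The slide as a block gave Cebpb 0.0586 and Stat3 0.1280 at D3, and keeping flagged spots gave Il6 -0.0109 at D28 and 0.0183 at D90. Without single rats Stat3 ran from -0.0376 to 0.2335 at D0, -0.1652 to 0.0491 at D3 and -0.1529 to 0.0032 at D180, Alb from -0.6189 to 0.3292 at D3, -0.0653 to 0.2234 at D28 and -0.1929 to 0.2817 at D180, Cebpb from -0.0999 to 0.0656 at D3 and -0.0053 to 0.1099 at D28, Socs3 from -0.0008 to 0.2464 at D28 and Cebpd from -0.0307 to 0.1693 at D90. Signal near background limits Orm1 in controls, Il6, Il17a and Alb.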
